A study of Mus musculus with 9 samples.

Results

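The 9 RNAs described here are long noncoding RNAs that are abundant in brain or known for their place in the nucleus or in an imprinted domain, namely Malat1, Neat1, Meg3, Rian, Mirg, Miat, Snhg11, Gas5 and Kantr. They were found by symbol, 1 row each, among the 57010 genes of the deposited table, and all 9 passed the filter on low counts that left 17967 genes. RefSeq types all 9 as noncoding, while GENCODE M21 types Snhg11 and Kantr as protein-coding. RNA came from hippocampal tissue of C57BL/6J mice in 3 groups of 3 libraries. CBD mice underwent spinal nerve ligation, which is used in rodents to model nerve-injury pain, and were then injected intraperitoneally with cannabidiol at 5 mg/kg over 15 days. SNL mice underwent the ligation and were given solvent. Sham mice had the L5 nerve exposed but not tied, and were also given solvent. The labels give no age or sex, and do not say whether libraries came from separate animals, so p-values measure only the spread between these libraries, which may be technical.

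Long noncoding RNAs are transcribed and often spliced like messenger RNAs but act mainly as RNA. Malat1 sits in nuclear speckles, the stores of splicing factors, and its end is cut by RNase P and held by a triple helix in place of a poly(A) tail. Neat1, the neighbour of Malat1 on chromosome 19, is the scaffold on which paraspeckles form. Meg3, Rian and Mirg lie in the same direction on chromosome 12 in the imprinted Dlk1-Dio3 domain, where they are made from the maternal copy. Rian carries a cluster of small nucleolar RNAs (snoRNAs) and Mirg one of microRNAs. Miat, also called Gomafu, stays in the nucleus of neurons. Snhg11 and Gas5 are snoRNA host genes, and the spliced RNA of human Gas5 can bind the glucocorticoid receptor. Kantr lies beside the histone demethylase gene Kdm5c on the X chromosome.

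Promoter windows from RefSeq (build GRCm38.p6, 250 bases before to 50 after an annotated start) were at hand for 8 of the 9 RNAs. They are shown for Kantr, the RNA with the largest difference between groups, for Meg3, the first transcript of the imprinted domain, and for Gas5, which holds a motif it shares with Meg3. The capitals mark the motif CCAAT on either strand, the cyclic AMP response element TGACGTCA, and TATAAA on either strand, 2 copies of which overlap in Meg3. The Kantr window is chrX:152327444-152327743 (minus strand), that of Meg3 is chr12:109540746-109541045 (plus strand) and that of Gas5, the second of 2 annotated starts, is chr1:161034916-161035215 (plus strand).
Kantr: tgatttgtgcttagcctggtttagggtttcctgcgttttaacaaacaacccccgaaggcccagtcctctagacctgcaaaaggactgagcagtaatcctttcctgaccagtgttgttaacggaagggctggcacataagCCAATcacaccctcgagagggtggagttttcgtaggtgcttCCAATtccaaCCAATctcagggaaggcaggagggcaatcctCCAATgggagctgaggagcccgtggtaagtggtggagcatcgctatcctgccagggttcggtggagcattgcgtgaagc
Meg3: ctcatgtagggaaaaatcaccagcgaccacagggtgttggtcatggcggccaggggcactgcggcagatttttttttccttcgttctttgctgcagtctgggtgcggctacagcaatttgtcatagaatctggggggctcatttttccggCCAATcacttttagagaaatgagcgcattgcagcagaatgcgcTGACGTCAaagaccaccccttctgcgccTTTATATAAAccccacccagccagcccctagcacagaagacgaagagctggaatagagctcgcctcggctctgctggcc
Gas5: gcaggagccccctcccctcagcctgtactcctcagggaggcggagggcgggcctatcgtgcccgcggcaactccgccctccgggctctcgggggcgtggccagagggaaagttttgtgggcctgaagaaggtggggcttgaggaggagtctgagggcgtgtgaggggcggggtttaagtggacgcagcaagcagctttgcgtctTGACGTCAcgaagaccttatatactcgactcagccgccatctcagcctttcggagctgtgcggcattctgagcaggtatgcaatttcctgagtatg

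Kantr held CCAAT 4 times, and 37.4% of 32851 promoter windows of this length held it at least once. TGACGTCA began 57 bases before the start of Meg3 and 46 bases before that of Gas5, and 1.79% of all windows held it. TATAAA was in the Meg3 window and in 13.6% of all windows. The GC box GGGCGG, held by 35.7% of windows, was in those of Miat and Gas5. A match is only a match of letters.

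RefSeq placed 10 microRNA hairpins inside Mirg, 3 inside Rian and 1 inside Meg3 on the same strand. Mature products of both Mir770 and Mir1906-1 lay inside Meg3, so hairpin counts can miss a microRNA gene. In GENCODE M21, 14 genes overlap Mirg on the same strand, all microRNAs. Among them are Mir382, Mir134, Mir668 and Mir485, which are not in the RefSeq set. Of the 19 mature microRNAs that RefSeq placed inside Mirg, with 18 distinct seeds, a pair shared the seed GGUUGCC. It is shown here in capitals because no other seed recurs among these 19.
mmu-miR-453: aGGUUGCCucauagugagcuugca
mmu-miR-496a-5p: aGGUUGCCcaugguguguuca

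Library totals ran from 16972620 to 20470546 expected counts, and the 9 RNAs together took at most 1.54% of them. Mitochondrially encoded genes took 4.52% to 6.65% in CBD, 4.76% to 6.29% in SNL and 3.20% to 4.56% in Sham. All 8 dentate granule cell and all 6 CA1 pyramidal markers had counts in every library. Transcripts typical of neighbouring brain regions differed between libraries. Pmch, a hypothalamic neuropeptide gene, stood at 145.7 CPM (counts scaled to library size) in CBD 1, 200.4 in SNL 1 and 43.9 in SNL 2, and at 0.797 or less in the other 6. The summed level of 9 thalamic and habenular markers was 490 to 714 CPM in CBD, 538 to 1502 CPM in SNL and 339 to 448 CPM in Sham. That of 8 choroid plexus markers was 1144 to 1889 CPM in CBD, 265 to 2215 CPM in SNL and 141 to 1318 CPM in Sham. The part of these tissues in the differences was not tested. In bulk tissue, fewer cells of a type and less RNA per cell cannot be told apart.

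Meg3 was by far the most abundant of the 9 by counts, averaging 6864 CPM over the 9 libraries and ranking 4th among all genes tested. Next came Snhg11 at 2254 CPM, Malat1 at 1732, Miat at 912, Rian at 736 and Neat1 at 391. Gas5 averaged 122.7 CPM, Kantr 28.4 and Mirg 26.3. Counts grow with transcript length as well as with level. Per kilobase of the longest transcript in GENCODE M21, the mean level was 472 CPM for Meg3, 384 for Snhg11, 248 for Malat1, 99.5 for Miat, 91.0 for Rian and 48.0 for Gas5. On the same per-kilobase scale Neat1, whose longest transcript has 20771 bases, stood at 18.8, Mirg at 6.88 and Kantr at 6.74. On that scale the ranges over the 9 libraries overlapped between Meg3 (377 to 581) and Snhg11 (294 to 490), between Snhg11 and Malat1 (177 to 310), between Miat (78.1 to 130.4) and Rian (73.2 to 105.8), and between Mirg (5.22 to 9.42) and Kantr (4.47 to 9.19). The isoforms present were not measured, and annotated Neat1 transcripts run down to 711 bases, so the Neat1 value depends on the isoform assumed. The libraries were made with a kit for mRNA. How well it recovers RNA without a poly(A) tail, such as Malat1, was not measured. Within a gene the highest library was between 1.44 times (Rian) and 2.06 times (Kantr) the lowest.

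**Figure D1:**
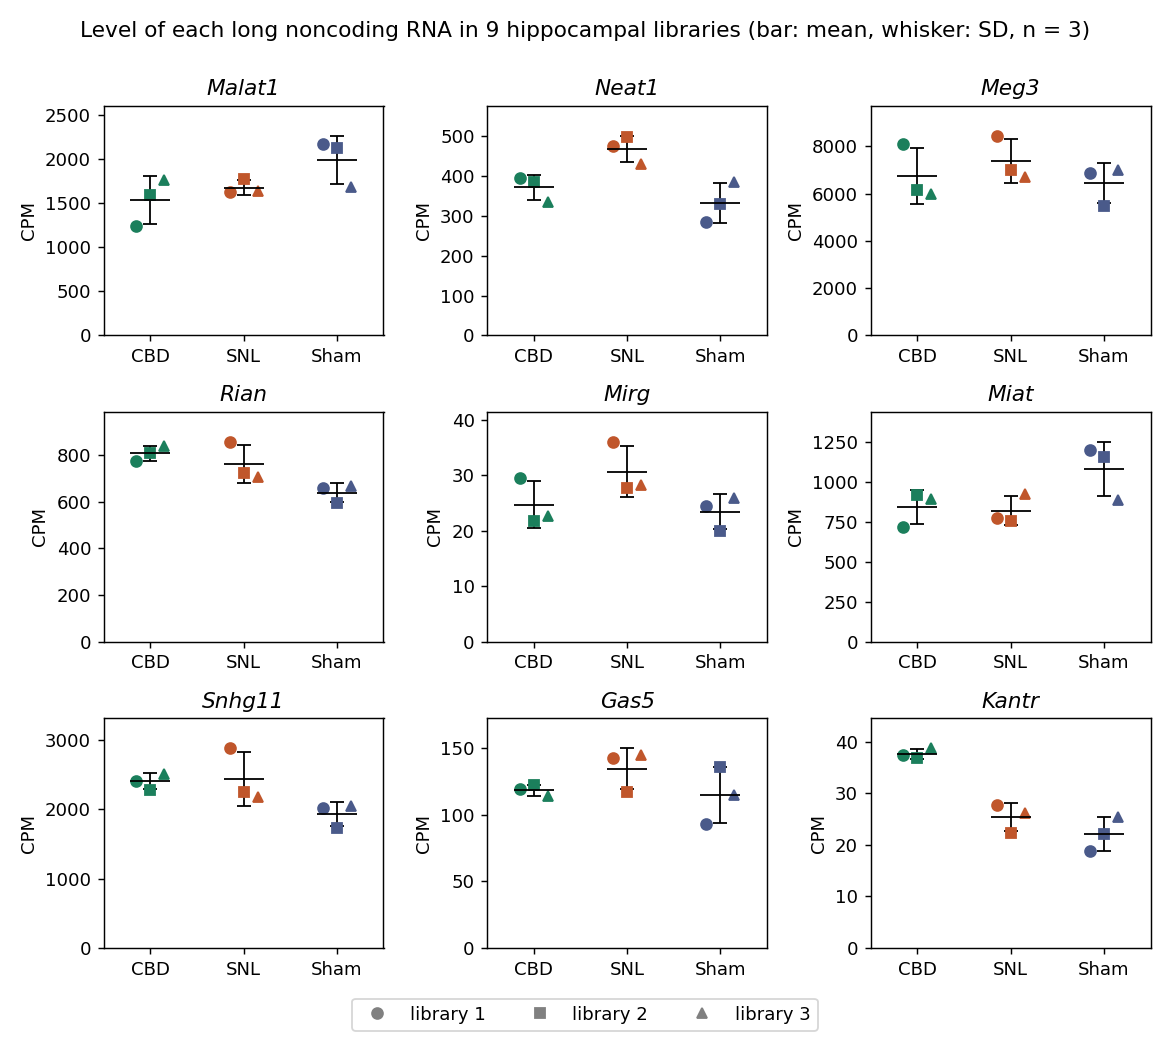
Level of each RNA in CPM (vertical axes, each from 0) in the CBD, SNL and Sham libraries, with points for libraries, a bar for the mean and whiskers for the SD (n = 3). The 3 Kantr points of CBD, between 36.7 and 38.7 CPM, lie above the 6 others, and the 3 Neat1 points of SNL, between 432 and 497 CPM, lie above all those of CBD and Sham.

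SNL against Sham is the comparison for the ligation itself. In SNL, 7 of the 9 RNAs stood higher and 2 lower, and their median log2 fold change was 0.23. Over all genes the median was 0.010, and 51.6% of genes were higher. edgeR's quasi-likelihood test called 0 of 17967 genes (0%) at an adjusted p under 0.05, so none of the 9 passed. At an unadjusted p under 0.05 there were 2478 genes (13.8%), and 5.83% of all genes were higher in SNL and 7.96% lower. Among them were 5 of the 9 RNAs, Neat1, Snhg11, Mirg and Rian on the higher side and Miat on the lower. DESeq2's Wald test called 365 genes (2.03%), of which Neat1 was the 1 member. For 4 of the 9, Neat1, Rian, Mirg and Snhg11, every SNL library lay above every Sham library, as it did for 7.94% of all genes. No member had every SNL library below every Sham library, against 9.81% of genes, and 17.7% of genes did not overlap in either direction.

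Neat1 had the smallest p of the 9. It stood at 476, 497 and 432 CPM in SNL libraries 1 to 3, against 284, 329 and 385 CPM in Sham libraries. The 3 SNL values were all above the 3 Sham values, and Sham 3 came nearest. This gave a log2 fold change of 0.49 (SE 0.13, 95% interval 0.20 to 0.78), with an adjusted p of 0.226 by edgeR and 0.0228 by DESeq2. With offsets for GC content and transcript length the log2 fold change was 0.68 (edgeR adjusted p 0.238). Markers of other cell types differed between these groups in both directions. All 8 oligodendrocyte markers were higher in SNL, with a summed level of 10711 to 15191 CPM in SNL and 8897 to 12002 CPM in Sham, and all 8 endothelial and pericyte markers, with 399 to 526 CPM in SNL and 285 to 339 CPM in Sham. The 8 astrocyte markers summed to 4054 to 4534 CPM in SNL and 4623 to 5217 CPM in Sham, wholly lower in SNL, although 5 of the 8 had a higher fitted value there. Dentate granule markers summed to 458 to 570 CPM in SNL and 588 to 908 CPM in Sham, with 7 of 8 lower. None of these markers was at 0 in any library, and their part in the Neat1 difference was not tested.

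Malat1, the neighbour of Neat1, had the opposite sign. It stood at 1626, 1768 and 1630.35 CPM in SNL libraries, against 2166, 2128 and 1677 CPM in Sham libraries. Sham 1 and Sham 2 were above every SNL library and Sham 3 lay within the SNL range. The log2 fold change was -0.25 (SE 0.15, interval -0.59 to 0.09, edgeR adjusted p 0.489). Neat1 counts per 100 of Malat1 were 27.9 ± 1.40 in SNL and 17.2 ± 5.16 in Sham (SD, n = 3 each), with no overlap, and the exact two-sided permutation p was 0.1, the smallest that 3 against 3 allows (0.3 after Benjamini-Hochberg adjustment over 18 ratio comparisons). Frmd8, a neighbouring protein-coding gene, stood higher in SNL by 0.36 on the log2 scale (SE 0.20), with overlap.

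Miat followed Malat1. It stood at 773, 757 and 924 CPM in SNL libraries, against 1195, 1154 and 883 CPM in Sham libraries. Sham 1 and Sham 2 were again the high ones and Sham 3 overlapped SNL. Its log2 fold change was -0.40 (SE 0.15, interval -0.73 to -0.060, edgeR adjusted p 0.299), and -0.22 with offsets for GC content and transcript length (unadjusted edgeR p 0.211). The same Sham libraries were high for CA1 markers. The summed level of these 6 genes was 459.5, 495 and 730.3 CPM in SNL and 1135, 1133 and 712 CPM in Sham, all 6 were lower in SNL, and their part in the differences of Malat1 and Miat was not tested.

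The 3 RNAs of the Dlk1-Dio3 domain were each higher on average in SNL. Meg3 stood at 8456, 7002 and 6704 CPM in SNL libraries, against 6883, 5488 and 7002.5 CPM in Sham libraries, which overlap. Mirg stood at 36.0, 27.8 and 28.3 CPM in SNL libraries, against 24.4, 20.0 and 26.0 CPM in Sham libraries, with no overlap. Rian stood at 856, 723 and 706 CPM in SNL libraries, against 657, 593 and 666 CPM in Sham libraries, again without overlap. For all 3 the highest library was SNL 1, the one with the highest level of Pmch. The log2 fold changes were 0.19 (SE 0.16) for Meg3, 0.39 (SE 0.16) for Mirg and 0.25 (SE 0.11) for Rian, with edgeR adjusted p of 0.617, 0.327 and 0.351 in that order. When SNL 1, SNL 2 and CBD 1 were left out, that of Meg3 was 0.063, that of Rian 0.15, that of Snhg11 0.18 and that of Miat -0.21. SNL then rests on SNL 3 alone, which is assumed to vary like the rest. For Meg3 the value was 0.094 without SNL 1, 0.089 without Sham 2 and 0.38 with offsets for GC content and transcript length.

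Snhg11 stood at 2875, 2245 and 2177 CPM in SNL libraries, against 2021, 1725 and 2045 CPM in Sham libraries. All SNL values were above all Sham values, and SNL 1 was again the highest. The log2 fold change was 0.33 (SE 0.13, edgeR adjusted p 0.316). Gas5 stood at 142, 117 and 145 CPM in SNL libraries, against 93.4, 135.6 and 115.2 CPM in Sham libraries, which overlap (log2 fold change 0.23, SE 0.14). Kantr stood at 27.7, 22.3 and 26.2 CPM in SNL libraries, against 18.8, 22.1 and 25.5 CPM in Sham libraries, which also overlap (0.20, SE 0.13). Single Sham libraries moved both, Gas5 to 0.10 without Sham 1 and 0.37 without Sham 2, and Kantr to 0.093 without Sham 1 and 0.32 without Sham 3. With the GC and length offsets Gas5 stood at 0.14 and Kantr at 0.13.

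**Figure D2:**
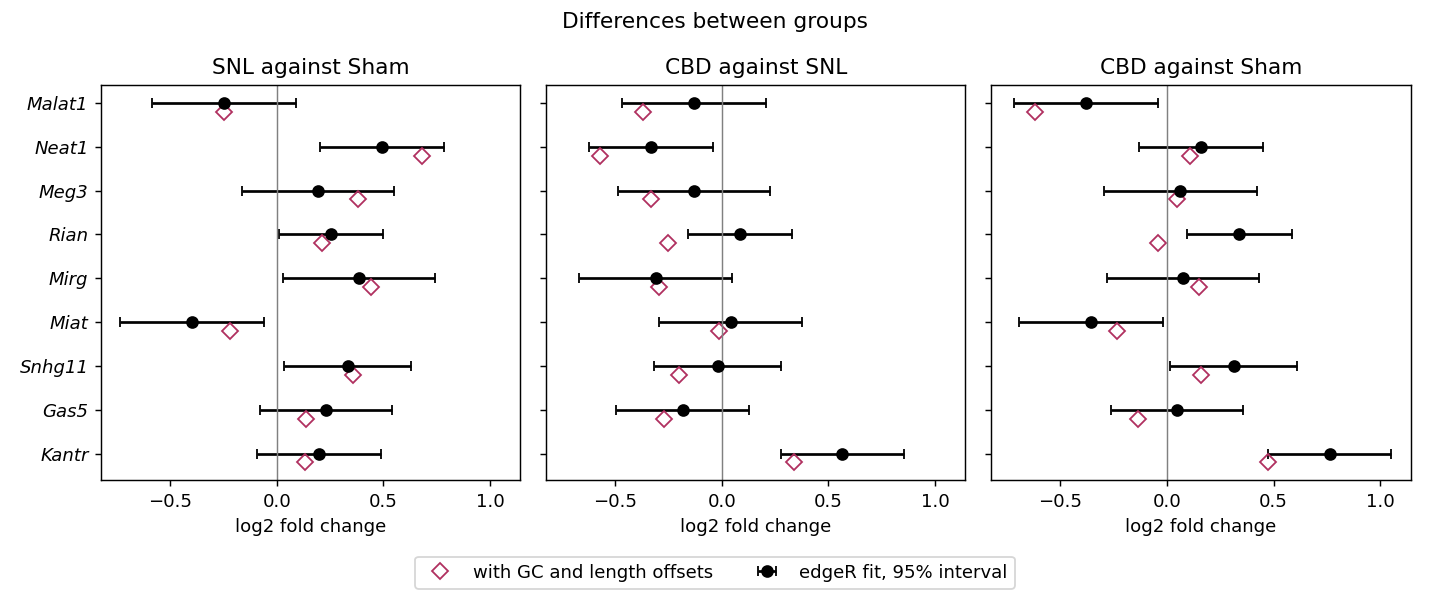
Log2 fold change (horizontal axis) of each RNA in the 3 comparisons, with points for the edgeR fit, whiskers for the 95% interval and open diamonds for the fit with offsets for transcript GC content and length. Kantr stands at 0.76 in CBD against Sham and at 0.47 with the offsets, and Rian at 0.34 and -0.040.

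CBD against SNL is the comparison for cannabidiol, both groups being ligated. In CBD, 3 of the 9 RNAs stood higher and 6 lower, and their median log2 fold change was -0.13. Over all genes the median was -0.0011, and 49.9% of genes were higher. edgeR called 0 of 17967 genes (0%), with 2462 (13.7%) at an unadjusted p under 0.05, 6.5% higher and 7.2% lower in CBD, and DESeq2 called 157 (0.874%). Kantr and Neat1 were the 2 members at an unadjusted p under 0.05, and DESeq2 called Kantr. The same 2 were the members whose groups did not overlap, Kantr higher (9.18% of all genes) and Neat1 lower (10.1% of genes). In either direction 19.3% of genes did not overlap, a share near that of the members.

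Kantr stood at 37.4, 36.7 and 38.7 CPM in CBD libraries, against 27.7, 22.3 and 26.2 CPM in SNL libraries. The CBD values lay close together and all above those of SNL. The mean was 37.6 ± 0.988 CPM in CBD and 25.4 ± 2.75 CPM in SNL (SD, n = 3 each). CBD over SNL gave a log2 fold change of 0.57 (SE 0.13, interval 0.28 to 0.85), with an adjusted p of 0.306 by edgeR and 0.0251 by DESeq2. Its p was the 72nd smallest of all genes tested. Fold changes of all genes in this comparison followed transcript GC content, with a Spearman rho of -0.44 across genes, which are not independent replicates. They also followed transcript length, with a rho of 0.36. The longest Kantr transcript has 37.5% GC, and the median of the 934 genes in its GC class was 0.20. With offsets for GC content and length the Kantr value was 0.34. Kdm5c and Tspyl2, the genes on either side of Kantr, had log2 fold changes of 0.047 (SE 0.11) and 0.055 (SE 0.17).

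Neat1 stood at 395, 385 and 335 CPM in CBD libraries, against 476, 497 and 432 CPM in SNL libraries, with no overlap. The log2 fold change was -0.33 (SE 0.13, interval -0.62 to -0.043, edgeR adjusted p 0.327), and it was -0.57 with GC and length offsets. All 8 oligodendrocyte markers were lower in CBD, where their summed level was 8421 to 9851 CPM, against 10711 to 15191 CPM in SNL, and so were all 8 endothelial and pericyte markers, at 364 to 429 CPM in CBD and 399 to 526 CPM in SNL. Their part was not tested here either.

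Within the imprinted domain, Mirg followed Meg3 from library to library more closely than Rian did. Mirg stood at 29.6, 21.8 and 22.7 CPM in CBD libraries, against 36.0, 27.8 and 28.3 CPM in SNL libraries (log2 fold change -0.31, SE 0.16). Meg3 stood at 8106, 6157 and 5979 CPM in CBD libraries, against 8456, 7002 and 6704 CPM in SNL libraries (-0.13, SE 0.16). CBD 1 and SNL 1, the libraries with the most Pmch, were the highest of their groups for both. Mirg counts per 100 of Meg3 were 0.367 ± 0.0126 in CBD, 0.415 ± 0.0158 in SNL and 0.363 ± 0.00790 in Sham (SD, n = 3 each). The SNL values, 0.397 to 0.426, lay above all those of CBD, 0.355 to 0.380, and of Sham, 0.355 to 0.371. The exact two-sided permutation p was 0.1 for CBD against SNL and 0.1 for SNL against Sham, the smallest possible, and 0.8 for CBD against Sham. Over the 18 comparisons of 6 ratios the Benjamini-Hochberg adjusted p was 0.3 for the first 2.

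Rian stood at 774, 809.5 and 839.7 CPM in CBD libraries, against 856, 723 and 706 CPM in SNL libraries, which overlap (log2 fold change 0.085, SE 0.11). Rian counts per 100 of Meg3 were 12.2 ± 2.38 in CBD, 10.3 ± 0.207 in SNL and 9.95 ± 0.732 in Sham. CBD 3 had the highest of the 9 values, 14.05, and CBD 1 had 9.55, so that the spread within CBD covered the other groups. The exact permutation p was 0.4 for CBD against SNL (adjusted 0.514). Rian has the lowest GC content of the 9 transcripts, 35.8%, and with the offsets its log2 fold change was -0.25.

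**Figure D3:**
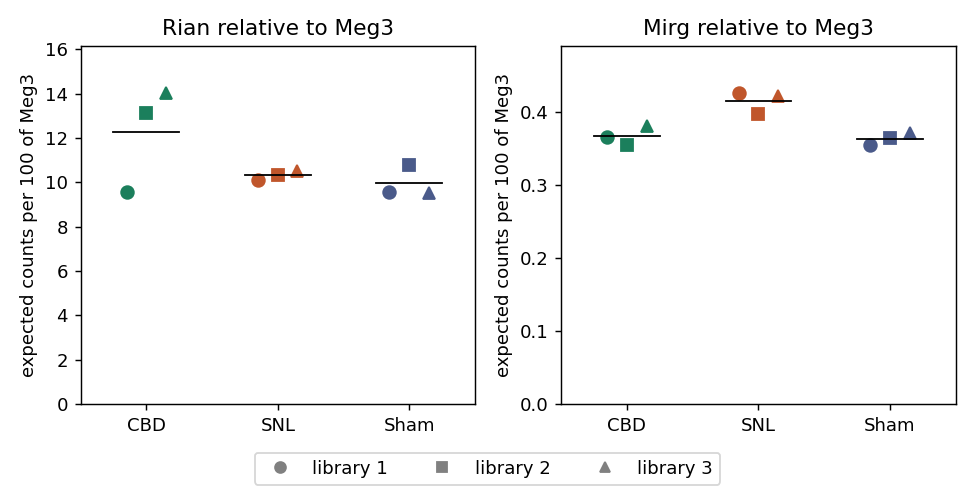
Expected counts of Rian (left) and Mirg (right) per 100 expected counts of Meg3 (vertical axes, each from 0) in each library, with a line for the group mean. The Mirg values of SNL, from 0.397 to 0.426, lie above those of both other groups, while the Rian values of CBD run from 9.55 to 14.05.

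The other members overlapped between CBD and SNL. Malat1 stood at 1236, 1591 and 1764 CPM in CBD libraries, against 1626, 1768 and 1630.35 CPM in SNL libraries (log2 fold change -0.13, SE 0.15, interval -0.47 to 0.21). Its lowest library of all 9 was CBD 1, which also had the lowest CA1 marker sum, 449.8 CPM. With GC and length offsets its log2 fold change was -0.37. Miat stood at 716, 914 and 894 CPM in CBD libraries, against 773, 757 and 924 CPM in SNL libraries (0.041, SE 0.15). Snhg11 stood at 2408, 2279.8 and 2510.3 CPM in CBD libraries, against 2875, 2245 and 2177 CPM in SNL libraries (-0.020, SE 0.13). Gas5 stood at 119.7, 122.1 and 114 CPM in CBD libraries, against 142, 117 and 145 CPM in SNL libraries (-0.18, SE 0.14). Zbtb37, which overlaps Gas5 on the opposite strand, had a log2 fold change of 0.24 (SE 0.15). The sources used here do not say whether counting used strand, so reads of the overlap may be shared. The same doubt holds for Malat1, Meg3, Mirg, Miat and Kantr, each of which overlaps 1 annotated gene on the opposite strand, in the case of Kantr a ribosomal RNA gene that was not matched in the table.

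CBD against Sham differs in both the ligation and the drug. In CBD, 7 of the 9 RNAs stood higher and 2 lower, and their median log2 fold change was 0.076. Over all genes the median was 0.00074, and 50.1% of genes were higher. edgeR called 0 of 17967 genes (0%), with 2925 (16.3%) at an unadjusted p under 0.05, 7.41% higher and 8.87% lower in CBD, and DESeq2 called 384 (2.14%). Kantr, Rian, Malat1, Miat and Snhg11 were the 5 members at an unadjusted p under 0.05, and Kantr the 1 that DESeq2 called. Kantr, Rian and Snhg11 were wholly higher in CBD, as were 10.6% of all genes, and 0 members were wholly lower, against 11.1% of genes, with 21.7% of genes not overlapping in either direction. This comparison shares its libraries with both others.

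Kantr stood at 37.4, 36.7 and 38.7 CPM in CBD libraries, against 18.8, 22.1 and 25.5 CPM in Sham libraries. The group means were 37.6 ± 0.988 CPM in CBD and 22.1 ± 3.34 CPM in Sham. CBD over Sham gave a log2 fold change of 0.76 (SE 0.13, interval 0.47 to 1.05), and its p was the 6th smallest of all genes tested. The adjusted p was 0.213 by edgeR, 0.000489 by DESeq2 and 0.0204 by edgeR with no filter on low counts. Without the 3 libraries with hypothalamic transcripts the value was 0.78. With GC and length offsets it was 0.47 (SE 0.10), with an edgeR adjusted p of 0.624. The median of genes in its GC class was 0.29, and the Spearman rho of fold change with GC content was -0.56 across genes. With transcript length the rho was 0.16.

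Rian stood at 774, 809.5 and 839.7 CPM in CBD libraries, against 657, 593 and 666 CPM in Sham libraries, with no overlap. Its log2 fold change was 0.34 (SE 0.11, interval 0.093 to 0.585, edgeR adjusted p 0.220). The median of the 324 genes in its GC class was 0.33, and with the offsets its log2 fold change was -0.040. Snhg11 stood at 2408, 2279.8 and 2510.3 CPM in CBD libraries, against 2021, 1725 and 2045 CPM in Sham libraries, with no overlap. Its log2 fold change was 0.31 (SE 0.13, edgeR adjusted p 0.286), and 0.16 with the offsets.

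Malat1 stood at 1236, 1591 and 1764 CPM in CBD libraries, against 2166, 2128 and 1677 CPM in Sham libraries. Sham 3 lay within the CBD range. The log2 fold change was -0.38 (SE 0.15, interval -0.72 to -0.042, edgeR adjusted p 0.268). It was -0.62 with the offsets, where genes of the same GC class had a median of 0.22 before them, and -0.24 without the 3 libraries with hypothalamic transcripts. Miat stood at 716, 914 and 894 CPM in CBD libraries, against 1195, 1154 and 883 CPM in Sham libraries, which overlap through Sham 3 (-0.36, SE 0.15, edgeR adjusted p 0.286). The longest Miat transcript has the highest GC content of the 9, 55.1%, and its log2 fold change was -0.23 with the offsets. The CA1 marker sum was 449.8, 810.9 and 842.5 CPM in CBD, against 1135, 1133 and 712 CPM in Sham, all 6 markers being lower in CBD, and its part was not tested.

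The remaining 4 had log2 fold changes of 0.16 (SE 0.13) for Neat1, 0.063 (SE 0.16) for Meg3, 0.076 (SE 0.16) for Mirg and 0.048 (SE 0.14) for Gas5, and their groups overlapped. The 95% interval of Meg3 ran from -0.29 to 0.42 and that of Gas5 from -0.26 to 0.36, and differences of those sizes lie within what 3 libraries a group leave undecided.

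**Figure D4:**
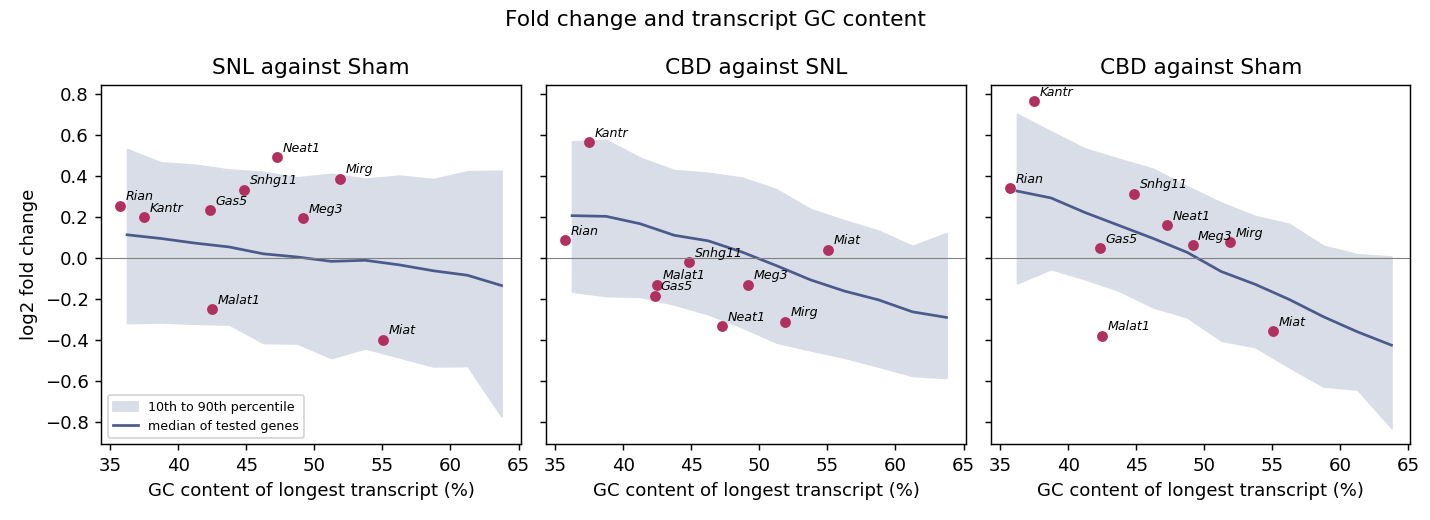
Log2 fold change (vertical axis) of the 9 RNAs (points) against the GC content of their longest transcript in percent (horizontal axis) in the 3 comparisons, with a line for the median and a band for the 10th to 90th percentile of all tested genes in GC classes 2.5 points wide. In CBD against Sham the line runs downwards, Rian lies on it, and Kantr at 0.76 and Malat1 at -0.38 lie above and below the band.

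Over the 9 libraries some members varied together. The Pearson correlation of log2 CPM was 0.95 for Rian and Snhg11, 0.94 for Meg3 and Mirg and 0.83 for Malat1 and Miat. Spearman correlations were 0.98, 0.87 and 0.57 in that order. Rian and Kantr came next by Pearson, at 0.75, with a Spearman of 0.82. The Pearson correlation was 0.42 for Meg3 and Rian, which share a domain, and -0.53 for Malat1 and Neat1, which are neighbours. These are descriptions over 9 points that also share group, depth and tissue makeup. They were made without the GC and length offsets. Rian and Kantr have the lowest GC contents of the 9, 35.8% and 37.5%, and the part of GC content was not tested. Among 10630 other genes of at least 10 CPM, those most like Malat1 were the immediate early gene Egr1 (Pearson 0.99, Spearman 0.95), the splicing regulator Sfswap (0.97 and 0.93) and the kinase gene Dgkz (0.97 and 0.93). Egr1 stood at 38.3, 55.6 and 65.9 CPM in CBD, 61.3, 67.5 and 58.6 CPM in SNL and 89.7, 78.4 and 59.8 CPM in Sham. Those most like Meg3 were Them4 (0.97 and 0.87), the calcium-binding protein gene Calb2 (0.96 and 0.90) and Slc25a18 (0.96 and 0.92). Calb2, like Meg3, was highest in SNL 1 at 180.8 CPM and in CBD 1 at 145.9 CPM. Those most like Neat1 were Litaf (0.98 and 1), Ndrg2 (0.97 and 1) and Prdx4 (0.95 and 0.97). Ndrg2 is known as an astrocyte gene. The 8 astrocyte markers summed lower in SNL than in Sham, although 5 of them had a higher fitted value in SNL. Their part in these likenesses was not tested. Those most like Gas5 were Chtop, an mRNA export factor (0.99 and 0.92), Csnk2b, the regulatory subunit of casein kinase 2 (0.99 and 0.95), and Gm10275 (0.97 and 1).

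Lists of genes with related roles were read in the same fit, and 0 genes of any list passed edgeR's adjusted threshold in any comparison. Of 16 other noncoding snoRNA hosts, 13 were higher in SNL than in Sham (median log2 fold change 0.11), 14 were lower in CBD than in SNL (-0.17) and 10 were lower in CBD than in Sham (-0.049). Gas5 had the signs of that list in the first 2 of these. Snhg6, a host gene, had a log2 fold change of -0.56 (SE 0.18) in CBD against SNL, without overlap. At an unadjusted p under 0.05 the list held 0, 1 and 0 genes in the 3 comparisons. Over all genes 13.8%, 13.7% and 16.3% reached that p in the same order, and 51.6%, 49.9% and 50.1% had a positive fold change.

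Of 26 other imprinted genes, 18 were higher in SNL than in Sham (median 0.18), 18 in CBD than in SNL (0.17) and 19 in CBD than in Sham (0.35), with 0, 1 and 5 higher at an unadjusted p under 0.05 and 0 lower. Over all genes 5.83%, 6.5% and 7.41% were higher at that p in the same order. Ube3a, a ubiquitin ligase gene imprinted in neurons, had a log2 fold change of 0.43 (SE 0.15) in CBD against Sham without overlap. Peg3 had one of 0.58 (SE 0.23) there, with overlap. Peg3 was highest in CBD 1 at 831.9 CPM and in SNL 1 at 697.7 CPM, the libraries with the most Pmch. Ube3a was highest in CBD 3 at 148.7 CPM. The paternally expressed Dlk1, at the other end of the domain from Dio3, varied widely. It ran from 9.85 to 103.9 CPM in CBD, 18.8 to 57.2 in SNL and 8.34 to 52.4 in Sham. Dlk1 too was highest in CBD 1, then in SNL 1. The part of hypothalamic tissue in these levels was not tested. Rtl1, which lies opposite the maternal transcripts, averaged 14.01 ± 5.31 CPM in CBD, 15.5 ± 3.17 in SNL and 13.3 ± 3.40 in Sham. Begain, beyond Dlk1, had a log2 fold change of -0.45 (SE 0.13) in CBD against Sham, without overlap. Of 5 imprinted noncoding RNAs tested, 4 were higher in SNL than in Sham. In CBD, 3 were higher than in SNL and 3 higher than in Sham. In each comparison 0 of them had an unadjusted p under 0.05, against 13.8%, 13.7% and 16.3% of all genes. Kcnq1ot1, which silences genes of its own imprinted domain, had a log2 fold change of 0.26 (SE 0.13) in CBD against Sham.

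Of 15 paraspeckle proteins, 8 were higher in SNL than in Sham (median 0.014), 9 in CBD than in SNL (0.054) and 10 in CBD than in Sham (0.065). At an unadjusted edgeR p under 0.05 this list held 1, 1 and 0 genes on the higher side and 0, 2 and 0 on the lower. Over all genes 5.83%, 6.5% and 7.41% were higher at that p and 7.96%, 7.2% and 8.87% lower. Hnrnph3, in this list, had the sign of Neat1 in the first 2 comparisons, with log2 fold changes of 0.42 (SE 0.11) and -0.30 (SE 0.11). Rbm12 had the opposite signs there, -0.26 (SE 0.14) and 0.33 (SE 0.14). The core protein gene Sfpq had -0.15 (SE 0.095) in SNL against Sham. Of 20 genes of nuclear speckles and SR proteins, many of which gather in the same bodies as Malat1, 12 were higher in SNL than in Sham (median 0.092), 14 in CBD than in SNL (0.060) and 14 in CBD than in Sham (0.18), with 2, 1 and 6 higher at an unadjusted p under 0.05 and 0 lower, beside the same shares of all genes. Clk4, a splicing kinase gene, had a log2 fold change of 0.30 (SE 0.097) in SNL against Sham, and Bclaf1 one of 0.24 (SE 0.094) in CBD against SNL. Son, of the same list, went the other way in SNL against Sham, at -0.23 (SE 0.11), without overlap. The splicing kinase gene Clk1 stood at 0.33 (SE 0.15) in SNL against Sham and 0.46 (SE 0.15) in CBD against Sham. Of 20 other brain long noncoding RNAs tested, 8 were higher in SNL than in Sham, 14 in CBD than in SNL and 12 in CBD than in Sham. Sox2ot, which spans the Sox2 gene, had a log2 fold change of 0.63 (SE 0.17) in SNL against Sham, without overlap.

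Of 10 genes of nonsense-mediated decay, the pathway that breaks down Gas5 RNA, 7 were lower in SNL than in Sham, 6 higher in CBD than in SNL and 7 lower in CBD than in Sham. In CBD against Sham the log2 fold change was -0.33 for Upf1, its helicase (SE 0.12), and 0.29 for Upf3b (SE 0.11), each without overlap. Of 7 genes of polycomb repressive complex 2, which Meg3 has been reported to bind, 3 were higher in each comparison. Ezh1, a catalytic subunit, had a log2 fold change of -0.36 (SE 0.10) in SNL against Sham, without overlap. Suz12 had a log2 fold change of 0.39 (SE 0.13) in CBD against SNL. The glucocorticoid receptor gene Nr3c1 averaged 105.5 ± 16.0 CPM in CBD, 87.2 ± 10.6 in SNL and 72.7 ± 3.74 in Sham, with a log2 fold change of 0.54 (SE 0.13, edgeR adjusted p 0.213) in CBD against Sham. The mineralocorticoid receptor gene Nr3c2 had a log2 fold change of -0.86 (SE 0.31) in SNL against Sham.

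Of 1651 tested genes outside the 9 that GENCODE M21 lists as noncoding, 811 were higher and 840 lower in SNL than in Sham, with a median of -0.0081. In CBD against SNL the median of these genes was 0.023, and in CBD against Sham 0.0072. An unadjusted p under 0.05 was reached by 8.78% of those genes in SNL against Sham, 5.94% in CBD against SNL and 7.69% in CBD against Sham. Over all genes tested the shares were 13.8%, 13.7% and 16.3% in the same order.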

How the data were processed

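RNA was measured in 9 hippocampal libraries of 3 groups. The authors deposited gene-level expected counts without normalization, and the submitters' processing notes name RSEM and the build GRCm39. The aligner, annotation and read filters were not given in the sources used here. Libraries were made from 1.3 ug of total RNA with a SMARTER kit for mRNA, per the labels' protocols. Values for Malat1, Snhg11 and Miat were not whole (beyond 1e-06) in all 9 libraries. The values were rounded before any test, and 1606 rows had no symbol.

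Genes were kept by filterByExpr, scaled by TMM and tested in edgeR 4.0.16 under R 4.3.3 by its quasi-likelihood method on all 9 libraries, with Benjamini-Hochberg adjustment over 17967 genes. SE is the log2 fold change divided by the root of F, and 95% intervals use its degrees of freedom. CPM uses TMM-scaled library sizes, and log2 CPM a prior count of 2. Alternatives were DESeq2 (1.42.0), other filters and scaling, the replicate block, offsets for GC content and length (mgcv 1.9.3, 98.2% of genes had values, GENCODE M21), and omitted libraries. The fit was tested on simulated data. RefSeq and GENCODE sequences are of GRCm38, so coordinates are given for the promoter windows alone. The named genes were all 9 members, up to 4 genes per list with the smallest p, adjacent coding genes (1 is not reported here), and the 3 genes most like Malat1, Meg3, Neat1 and Gas5. The members and lists were chosen with earlier results of these data known.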

Additional observations from a re-analysis of the deposited data

How the results depend on the processing

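Genes called at an adjusted p under 0.05 in SNL against Sham, CBD against SNL and CBD against Sham numbered 0, 0 and 0 by the edgeR test as reported, but 365, 157 and 384 by DESeq2, 253, 1 and 56 with no filter on low counts, and 1, 2 and 20 without the 3 libraries with hypothalamic transcripts. With only the 6 libraries compared, 1 gene was called in CBD against Sham. Leaving out 1 library gave 0 to 8, 0 to 2 and 0 to 17. The highest counts, 8, 2 and 17, came without CBD 1, and 7 were called in SNL against Sham without Sham 3, 1 there without CBD 3 and 1 in CBD against Sham without SNL 2. DESeq2 size factors, the 1 CPM filter and the GC and length offsets gave 0 in each. The replicate numbers showed no visible pairing of the libraries. Correlations of same-numbered deviations ran from -0.27 to 0.19, and 0 of 9 libraries correlated best with their own number. With 3 libraries a group, this cannot exclude a pairing. With the replicate block the counts were 0, 0 and 0, and the log2 fold change of Kantr in CBD against Sham was 0.77.

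In SNL against Sham no member changed sign under any of the 18 settings. Leaving out 1 library there gave 0.089 to 0.26 for Meg3, 0.10 to 0.37 for Gas5 and 0.093 to 0.32 for Kantr. With the GC and length offsets signs turned for Rian and Miat in CBD against SNL (-0.25 and -0.014, and -0.26 and -0.019 with the replicate block) and for Rian and Gas5 in CBD against Sham (-0.040 and -0.14, and -0.038 and -0.13 with the block). Without the 3 libraries with hypothalamic transcripts they turned for Malat1 (0.042), Miat (-0.032) and Snhg11 (0.14) in CBD against SNL and for Meg3 (-0.082) and Mirg (-0.066) in CBD against Sham. Leaving out 1 library gave -0.023 to 0.14 for Miat and -0.094 to 0.11 for Snhg11 in CBD against SNL, and -0.092 to 0.14 for Meg3, -0.077 to 0.16 for Mirg and -0.081 to 0.18 for Gas5 in CBD against Sham. The cause of these changes was not tested. Kantr kept its sign in all 18 settings of each comparison, from 0.47 to 0.88 in CBD against Sham and 0.34 to 0.62 in CBD against SNL. Groups of 3 libraries limit what these data can resolve.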
